A study of Mus musculus with 9 samples.

Results

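Mouse embryonic stem (ES) cells lacking Dgcr8 were compared with the embryonic fibroblasts they were grown on, across 100 microRNAs. The 100 were all probes that match a mouse microRNA gene and have a value in both knockout lines and on at least 1 feeder array. They were drawn from 206 array probes, of which 195 match a mouse gene. For each microRNA the mean of the knockout lines was set against the mean of the feeder arrays. Both groups had been hybridised against RNA of wild-type V6.5 ES cells, a mouse ES cell line, so the wild-type value cancels and the difference gives the knockout signal as a share of the feeder signal.

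Each array carried small RNA of a sample in 1 dye and wild-type small RNA in the other, and the values are log ratios. The likely direction, which no source states, puts the sample over wild type. The groups used here were homozygous DGCR8 knockout ES cells of line 1 (2 arrays) and line 2 (2 arrays, V6.5 on the label of 1), and irradiated mouse embryonic fibroblast feeder cells (2 arrays). DGCR8 heterozygous knockout V6.5 cells (3 arrays) entered only the estimate of the spread. All ES cells had grown on the feeders and were passaged off them before RNA extraction, and the feeder arrays were made to ask whether feeder RNA accounts for signals in the knockout. Each knockout line was hybridised in duplicate, so a line counts as 1 replicate, and the knockout rests on 2 lines. Nothing states that the feeder arrays were separate cultures, so they entered the fit as a single mean. The p-values and intervals below rest on the spread of the heterozygous arrays and between the lines, which may be technical in part. They leave out the spread between the feeder arrays, except where arrays were taken singly. The strain and age of the feeder animals, and any pooling of them, were not given.

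DGCR8 binds the primary transcript of a microRNA and positions the nuclease Drosha, which cuts out the hairpin that Dicer then trims to the mature form. A few microRNAs reach Dicer by routes that bypass this cut, so cells without DGCR8 can keep some of them. Feeder fibroblasts have their own DGCR8 and a microRNA content of their own, and feeder RNA carried into an ES cell sample in a fixed proportion would add the same share of the feeder signal at every probe. The share of the feeder signal is therefore the quantity reported throughout.

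Between 85 and 100 of the members had a value on each knockout array, and 81 and 98 had one on feeder replicates 1 and 2. All 6 knockout and feeder arrays gave a value for 68 members, 21 members rested on 1 feeder array, and 20 on 1 array in a line. The 2 arrays of a group correlated across members with r = 0.956 for the feeders, 0.928 for line 1 and 0.911 for line 2, as a description. Signal over background is unknown because no intensities were analysed. The feeder label was checked against 13 probes for fibroblast microRNAs (miR-21, miR-22, miR-29b, miR-31, miR-143, miR-145, miR-199a, miR-199a*, miR-214, miR-221 and miR-222). All 13 had feeder means above wild-type ES cells, at log2 ratios of 3.00 to 5.88, though miR-21 stood at 0.81 on feeder replicate 2. The fibroblast and mir-290 lists were chosen with earlier results of these data known, so the check is not independent. The 6 ES cell microRNAs of the mir-290 cluster chosen as markers had feeder means between -7.95 and -5.92. The 5 probes of the ES cell mir-302 cluster had no feeder value. Dgcr8 itself is no microRNA and was not measured.

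The mature sequences that the results turn on are shown first, with bases 2 to 8, the seed that pairs with target messages, in capitals. They are those of RefSeq for GRCm38.p6, written 5′ to 3′, and 88 of the 100 members had an entry. The first set comes from a single stretch of chromosome 17 where 3 microRNA genes neighbour each other within 10 kb, and it shows that neighbours there have unrelated seeds.
miR-99b: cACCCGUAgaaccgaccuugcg
let-7e: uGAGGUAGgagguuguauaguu
miR-125a: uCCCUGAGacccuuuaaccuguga

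Relatives of these 3 elsewhere in the genome share their seeds, and they are shown because shares within a seed family are compared below. The let-7 forms differ in a few bases outside the seed: let-7a and let-7g are 2 mismatches apart, and let-7a and let-7d also 2.
let-7a: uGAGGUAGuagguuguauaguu
let-7b: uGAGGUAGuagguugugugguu
let-7d: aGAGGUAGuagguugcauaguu
let-7f-2: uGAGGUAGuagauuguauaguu
let-7g: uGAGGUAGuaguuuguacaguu
miR-99a: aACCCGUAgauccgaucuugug
miR-125b: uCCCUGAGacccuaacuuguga

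The last set holds fibroblast microRNAs, ES cell microRNAs and the microRNAs at the low and high ends of the shares.
miR-21: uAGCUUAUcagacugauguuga
miR-22: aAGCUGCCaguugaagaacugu
miR-31: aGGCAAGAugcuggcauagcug
miR-34a: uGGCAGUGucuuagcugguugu
miR-221: aGCUACAUugucugcuggguuuc
miR-222: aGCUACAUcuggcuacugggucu
miR-291-3p: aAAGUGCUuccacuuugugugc
miR-294: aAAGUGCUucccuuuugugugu
miR-295: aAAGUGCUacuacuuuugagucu
miR-17-5p: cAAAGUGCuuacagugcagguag
miR-106b: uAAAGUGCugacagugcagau
miR-103: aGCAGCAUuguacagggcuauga
miR-107: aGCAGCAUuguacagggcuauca
miR-130a: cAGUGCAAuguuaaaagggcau
miR-130b: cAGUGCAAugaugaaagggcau
miR-376a: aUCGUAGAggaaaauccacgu
miR-323: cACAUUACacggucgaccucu
miR-141: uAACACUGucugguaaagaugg
miR-200a: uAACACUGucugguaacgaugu
miR-138: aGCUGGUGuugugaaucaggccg

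Knockout cells held less of most of these microRNAs than feeder fibroblasts did. Of the 100, 77 were lower in the knockout (77% of those tested), and 1 was higher (1%), so that 78% were called in either direction and 22 were not (limma with Benjamini-Hochberg adjustment over the 100, threshold 0.05). The median share was 2.52% of the feeder signal, a 39.6-fold difference (median log2 difference -5.31), and it was 2.38% with line 1 and 3.03% with line 2. Single shares ran from 0.111% for miR-376a, of the imprinted Dlk1-Gtl2 region, to 278% for miR-200a, an epithelial microRNA. Under 1% lay 36 members, between 1% and 10% lay 31, between 10% and 50% lay 13, and 20 stood at 50% or more.

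All knockout arrays lay below all feeder arrays for 80 members, among them all 77 called lower. Only miR-323, miR-320 and miR-200a had all knockout arrays above all feeder arrays, and 17 members overlapped. The smallest difference among the lower calls was that of miR-423 at 25.1%. Its call was lost without feeder replicate 1 and with replicates 2 alone (a setting added after seeing the data). The largest limma adjusted p among the lower calls was 0.0225, for miR-125b. The largest difference below 0 that did not pass was that of miR-211 at 38.2%. At an unadjusted p under 0.05, 79 were lower and 1 was higher. The lines lay within 2-fold of each other for 74 of the 100, and 29 were under 1% in both. The lowest share was 0.106% in line 1 (miR-34a) and 0.0705% in line 2 (miR-376a).

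**Figure D1:**
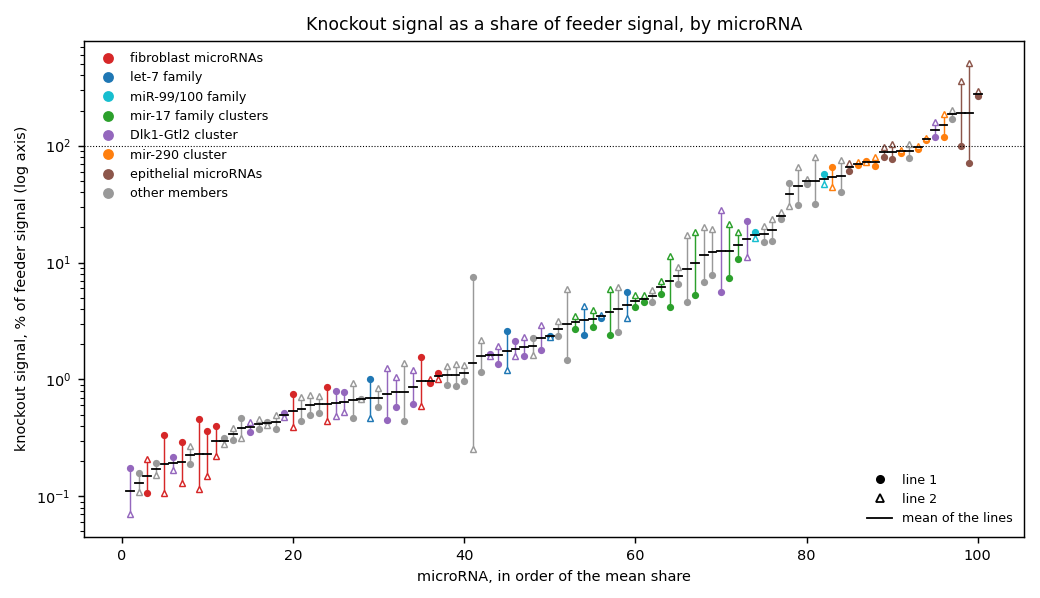
Knockout signal as a percent of feeder signal for the 100 microRNAs, in order of the mean share, on a log axis. Filled circles are line 1, open triangles line 2, black bars the mean of the lines, colours the microRNA groups, and the dotted line marks 100%. The mean shares run from 0.111% to 278% with a median of 2.52%.

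The direction of the ratios is likely because the series text names wild type as the reference. Were it turned on all arrays, each share would become its inverse, with 77 microRNAs higher, 1 lower and a median 39.6-fold higher in the knockout. The 13 fibroblast probes would then lie below wild-type ES cells in the feeders, and the 6 mir-290 markers above them. The lists behind these probes were chosen with earlier results of these data known, so they are no independent check of the direction.

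These shares hold on the scale of the control RNAs added in equal amount to each sample. When each array was instead centred on its own median (over the 58 probes measured on all arrays), the median difference moved by 5.83 on the log2 scale to 0.52, and 23 members were then lower and 41 higher. Groups below are given on the control RNA scale, with the centred median beside those of at least 4 members, or the centred values of single members, where the sign turns. The arrays measured RNA from whole cultures, in which fewer cells of a kind and less RNA per cell cannot be told apart.

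The share went with how high a microRNA stood in the feeders. For the 30 members more than 4-fold above wild-type ES cells in the feeders, the median share was 0.639%, from 0.111% (miR-376a) to 17.2% (miR-99a). The 42 members within 4-fold of wild type had a median of 1.72%, from 0.192% (miR-127) to 185% (miR-320). The 28 members more than 4-fold below wild type in the feeders had a median of 59.5%, from 3.07% (miR-17-3p) to 278% (miR-200a). The median knockout ratios over wild type of these sets were -5.02, -5.51 and -6.86. The feeder value is part of the share by construction, so these sets are a description. Of the 19 members whose knockout and feeder values were within 2-fold, 14 were over 8-fold below wild type in both. The other 5 were miR-99b, miR-140, miR-126*, miR-323 and miR-320.

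**Figure D2:**
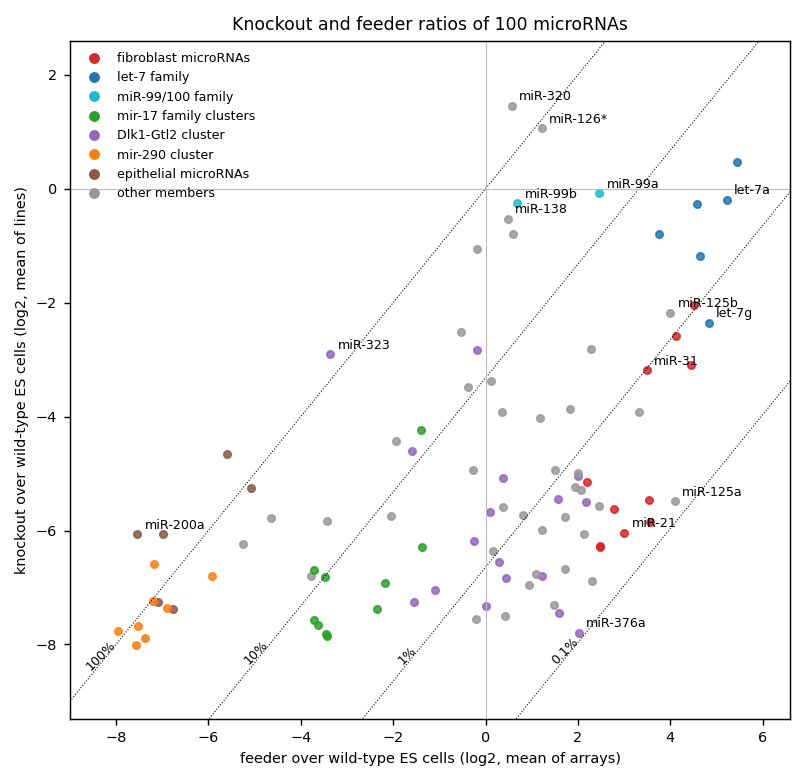
Log2 ratio over wild-type ES cells in the knockout (vertical, mean of the lines) against the ratio in the feeders (horizontal, mean of the arrays) for the 100 microRNAs. Dotted diagonals mark knockout signals of 100%, 10%, 1% and 0.1% of the feeder signal, and colours mark the groups. Fibroblast microRNAs lie between 0.148% and 1.07%, let-7 members between 0.691% and 4.31%, and miR-99a at 17.2%.

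The fibroblast microRNAs had low shares throughout. All 11 measured of the 20 listed were lower in the knockout than in the feeders, against 77% of all 100 members. Their median share was 0.295%, with a range of 0.148% (miR-34a, which p53 induces) to 1.07% (miR-221). The median was 0.463% with line 1 and 0.219% with line 2. Over the 10 members with both feeder arrays it was 0.223% against feeder replicate 1 and 0.782% against replicate 2. The list was chosen with earlier results of these data known, and it serves here as a description. The other 9 did not meet the rule for a member. With centred arrays, 4 of the 11 members were still called lower.

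miR-21, known as a microRNA that represses growth-restraining genes, had log2 ratios of -5.55 and -4.89 in line 1, -6.45 and -7.27 in line 2, against 5.20 and 0.81 in the feeders. miR-22, which is abundant in many differentiated cells, had -5.02 and -4.72 in line 1, -6.04 (1 array) in line 2, against 5.14 and 1.95 in the feeders. In both, each knockout array lay below both feeder arrays, while the feeder arrays themselves differed by over 8-fold. The share of miR-21 was 0.19% of the feeder signal (95% interval 0.0552% to 0.65%; log2 difference -9.04 ± 0.74, SE; adjusted p = 3.56e-05). It was 0.0414% against feeder replicate 1 and 0.868% against replicate 2, both outside that interval, which leaves out the feeder spread. miR-22 stood at 0.195% (0.063% to 0.602%).

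The ratios of miR-31, known for restraining spread of tumour cells, were -3.32 and -3.17 in line 1, -3.17 and -3.09 in line 2, against 3.88 and 3.10 in the feeders. Its 4 knockout arrays lay closer together than its 2 feeder arrays, and its share was 0.977%, with 0.938% in line 1 and 1.02% in line 2. miR-221 and miR-222 neighbour each other on the X chromosome, share the seed GCUACAU and repress an inhibitor of the cell cycle. They stood at 1.07% and 0.54%. miR-29b, which represses collagen genes, stood at 0.965% and had -1.89 (1 array) in line 1, -2.07 and -4.49 in line 2, against 5.07 and 3.16 in the feeders. These 4 lay highest in the list together with miR-24, at 0.618%.

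The pair miR-23a and miR-27a of chromosome 8 stood at 0.232% and 0.295%, and the pair miR-23b and miR-24 of chromosome 13 at 0.231% and 0.618%. The mature sequence of miR-24 has 2 loci, so its share cannot be assigned to chromosome 13 alone. miR-23b was lower in line 2 than in line 1 by value, 0.115% against 0.463%. That order held for 9 of the 11 fibroblast microRNAs, against 34 of all 100 members. It was the reverse for miR-34a and miR-31. Between the lines miR-23b did not pass (limma adjusted p = 0.217, all arrays taken singly), and the count was not tested.

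The let-7 family, which promotes differentiation and restrains Lin28 and other growth genes, was lower in the knockout than in the feeders as well, at higher shares by value. All 6 measured of 9 listed were lower, against 77% of all 100 members. Their median share was 2.74% and their median difference -5.19. That difference turned to 0.60 with centred arrays, where no let-7 member was called in either direction. Shares ran from 0.691% (let-7g) to 4.31% (let-7e). The median was 2.50% with line 1 and 2.78% with line 2.

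let-7a had log2 ratios of -0.03 and -0.33 in line 1, 0.44 and -0.84 in line 2, against 6.77 and 3.68 in the feeders. For let-7b they were -0.05 and -0.59 in line 1, 0.28 and -0.74 in line 2, against 5.60 and 3.54 in the feeders. For let-7e they were -0.24 and -0.58 in line 1, -0.70 and -1.61 in line 2, against 4.59 and 2.92 in the feeders. In the knockout all 3 stayed near the wild-type level, and in the feeders they stood far above it, so the groups did not overlap. The share of let-7a was 2.34% of the feeder signal (95% interval 1.17% to 4.69%; log2 difference -5.42 ± 0.40, SE; adjusted p = 5.5e-05). With all 9 arrays taken singly, which adds the feeder spread, its interval widened to 0.743% to 7.37%. let-7b stood at 3.47% and let-7f-2 at 3.2%.

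let-7g had ratios of -1.80 (1 array) in line 1, -2.90 (1 array) in line 2, against 5.42 and 4.24 in the feeders. It was the let-7 form furthest below wild type in the knockout, and its share of 0.691% (0.217% to 2.2%) was the lowest of the family. let-7d stood at 1.76% and had -0.62 (1 array) in line 1, -1.74 (1 array) in line 2, against 4.65 (1 array) in the feeders. On chromosome 13 let-7d and let-7a are neighbours, and their shares were 1.33-fold apart.

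Feeder replicate 1 read higher than replicate 2 for let-7. The median share of the 5 let-7 members with both feeder arrays was 1.64% against replicate 1 and 6.83% against replicate 2. Over the 79 members with both arrays the medians were 1.64% and 2.75%, and replicate 1 was the higher for 58 of 79, by 0.58 in the median. Among the 27 of these more than 4-fold above wild type in the feeders it was higher for 25, by 1.56 in the median. Among the 24 more than 4-fold below wild type the median was -0.21. Dye orientation differs between the replicates, and dye and replicate cannot be told apart here.

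**Figure D3:**
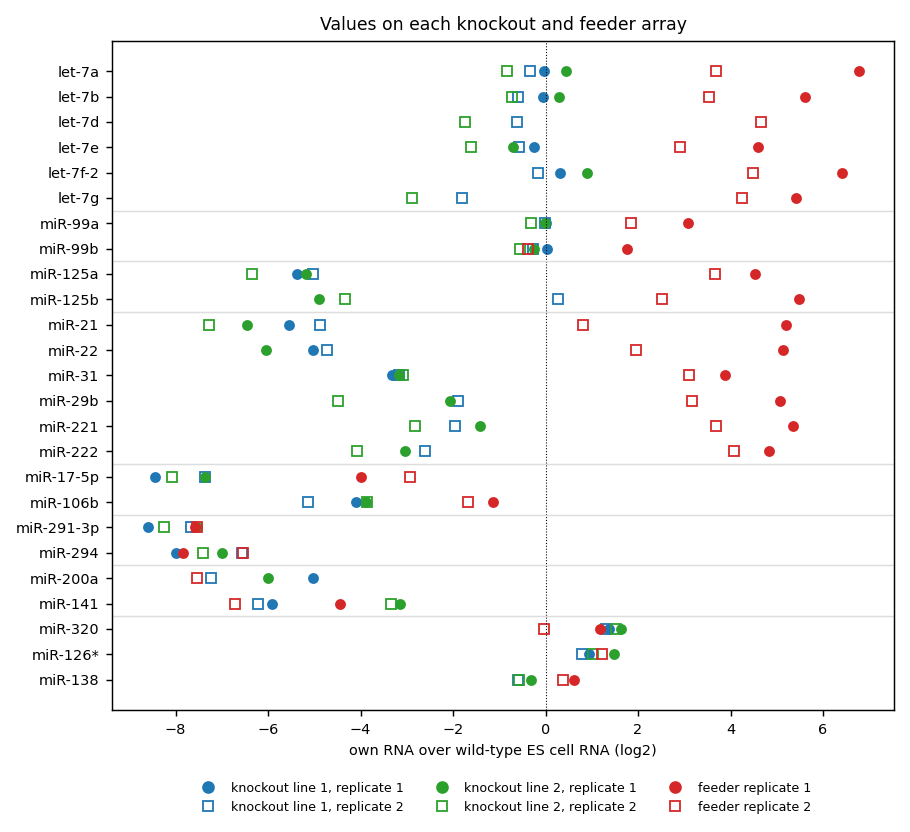
Log2 ratio of own RNA over wild-type ES cell RNA on each array for 25 microRNAs. Circles are replicate 1 and open squares replicate 2, blue is knockout line 1, green line 2 and red the feeders, and grey lines separate families. For let-7, miR-21, miR-22 and miR-31 each knockout point lies left of each feeder point, while those of miR-99b, miR-291-3p and miR-126* overlap.

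miR-99a and miR-99b, known to repress mTOR, both had knockout means below the feeder mean. miR-99a was called lower and miR-99b did not pass, but their intervals overlapped, and the difference between them was not tested. miR-99a had log2 ratios of 0.01 and -0.01 in line 1, -0.01 and -0.31 in line 2, against 3.09 and 1.84 in the feeders. Its 4 knockout arrays lay close to the wild-type level, and both feeder arrays lay above them. The share was 17.2% of the feeder signal (95% interval 8.61% to 34.2%; log2 difference -2.54 ± 0.41, SE; adjusted p = 0.000982), and on centred arrays its difference turned to 3.28.

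miR-99b had 0.03 and -0.26 in line 1, -0.24 and -0.54 in line 2, against 1.76 and -0.39 in the feeders. Feeder replicate 2 fell among the knockout arrays and replicate 1 above them. The share was 52% of the feeder signal (95% interval 27.6% to 98.2%; log2 difference -0.94 ± 0.38, SE; adjusted p = 0.0576), which did not pass, and it was 24.7% against feeder replicate 1 and 109.5% against replicate 2. Without feeder replicate 2, line 1 replicate 1 or line 2 replicate 1 it was called lower. So it was over members with all 6 arrays, over those with 2 or more heterozygous values, and with replicates 1 alone. On centred arrays its difference turned to 4.88. The third member of the family, miR-100, stood at 4.26 in the feeders and had no knockout value.

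miR-125a and miR-125b, which are relatives of the worm lin-4 microRNA, were both lower in the knockout. miR-125a had -5.37 and -5.03 in line 1, -5.18 and -6.35 in line 2, against 4.52 and 3.67 in the feeders. Every knockout array lay over 8 log2 units below every feeder array, and the share was 0.131% of the feeder signal (95% interval 0.0454% to 0.378%; log2 difference -9.58 ± 0.61, SE; adjusted p = 3.56e-05). miR-125b had 0.26 (1 array) in line 1, -4.90 and -4.34 in line 2, against 5.48 and 2.52 in the feeders. The single array of line 1 stood near wild type and both arrays of line 2 far below it, so the mean share of 1.38% had an interval of 0.0567% to 33.5% (adjusted p = 0.0225). Its call was lost without feeder replicate 1, without heterozygous replicate 3, and with replicates 2 alone.

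The neighbours miR-99b, let-7e and miR-125a on chromosome 17 differed widely in share. They stood at 52%, 4.31% and 0.131%, a 397-fold range. The intervals of the 3 shares were 27.6% to 98.2%, 1.84% to 10.1% and 0.0454% to 0.378%, and they did not overlap. With arrays taken singly they were 22% to 123%, 1.86% to 9.96% and 0.0562% to 0.305%. In line 1 the shares were 57.3%, 5.58% and 0.159%, and in line 2 47.2%, 3.33% and 0.108%, so the order was the same in both. Against feeder replicate 1 the order was also that, at 24.7%, 2.41% and 0.0975%, and against replicate 2 again, at 109.5%, 7.69% and 0.176%.

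Other groups of neighbours were narrower. Shares within groups of 2 or more members within 10 kb spanned 1.27-fold (miR-23a and miR-27a; miR-341 and miR-370) to 4.24-fold (miR-25, miR-93 and miR-106b), outside chromosome 17 and the large group of chromosome 12. In that group 14 members spanned 1243-fold, from miR-376a to miR-323. Its other members lay between 0.494% (miR-299) and 2.28% (miR-134). Among the members of the groups compared, miR-16, miR-24 and miR-92 have the same mature sequence at 2 loci. Their shares are therefore not those of a single locus.

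**Figure D4:**
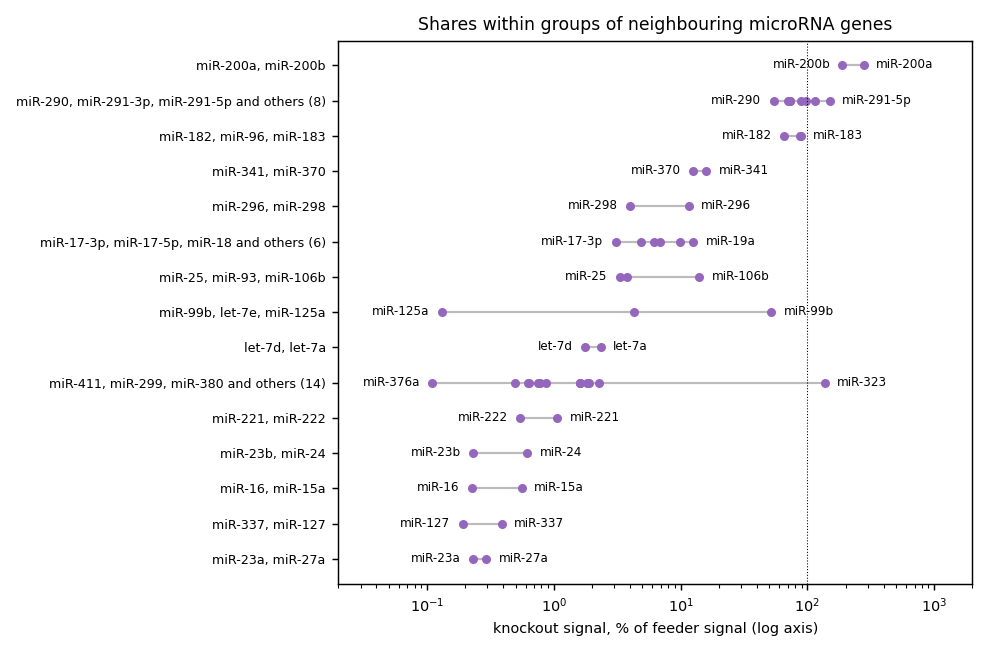
Knockout signal as a percent of feeder signal, on a log axis, for microRNA genes that lie within 10 kb of each other in RefSeq GRCm38.p6, 1 row per group. Points are microRNAs, grey lines join the lowest and highest of a group, which are named, and a number in brackets gives the members of a group named in part. miR-99b, let-7e and miR-125a span 397-fold, while miR-23a and miR-27a span 1.27-fold. The mature sequences of miR-16, miR-24 and miR-92 have 2 loci each, and each is drawn at a single locus.

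Within a seed, shares were compared where 2 or more members carried it. miR-103 and miR-107, which are encoded within genes for pantothenate kinases, share GCAGCAU and stood at 0.421% and 0.433%. miR-181a and miR-181b, known from lymphocyte development, share ACAUUCA and stood at 0.66% and 0.605%. At the other end, members with AGUGCAA ran from 0.412% (miR-130a) through 1.09% (miR-301) to 7.73% (miR-130b), an 18.8-fold range. The 6 let-7 forms spanned 6.24-fold, miR-99a and miR-99b 3.03-fold, and the miR-125 pair 10.5-fold. Mature sequences this alike could bind each other's probes, which was not tested.

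miR-130a had ratios of -8.01 and -7.29 in line 1, -6.97 and -7.76 in line 2, against 0.46 and 0.37 in the feeders. Those of miR-130b were -6.06 and -5.90 in line 1, -5.10 and -5.93 in line 2, against -2.31 and -1.80 in the feeders. In the feeders miR-130a stood just above wild type and miR-130b below it. Both were lower in the knockout, though miR-130b turned to 2.13 with centred arrays, with adjusted p = 7.67e-06 and 0.00014.

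The groups of families below each had a median share under 1%. Over all 100 members 77% were called lower, which is the figure to set beside the counts of these small groups. All 5 measured of 6 in the miR-15, miR-16, miR-103 and miR-107 families, the first known to restrain the cell cycle, were lower, with a median of 0.433%, from 0.226% (miR-16) to 0.613% (miR-15b). miR-16 had -7.85 and -7.29 in line 1, -6.40 and -7.68 in line 2, against 2.03 and 0.94 in the feeders. Its knockout arrays all lay more than 7 log2 units below both feeder arrays, and its share was 0.226% of the feeder signal (95% interval 0.113% to 0.452%; log2 difference -8.79 ± 0.42, SE; adjusted p = 7.67e-06). All 4 measured of 12 in the miR-30, miR-26 and miR-101 families were lower, with a median of 0.363%, from 0.171% (miR-30b) to 1.08% (miR-101, which represses Ezh2). The 4 measured of 6 in the miR-130, miR-301, miR-148 and miR-152 families were lower too, with a median of 0.923%. With centred arrays, 5 of 5, 3 of 4 and 1 of 4 in these groups were called lower, and 1 of the last group higher.

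The Dlk1-Gtl2 region of chromosome 12 is imprinted and holds a large number of microRNA genes. Of 17 members (30 listed), 16 were lower in the knockout and 1 did not pass, against 77% lower over all 100 members. The median share was 0.865%. With centred arrays 5 of the 17 were called lower and 3 higher. miR-376a had -7.46 and -6.83 in line 1, -6.38 and -10.51 in line 2, against 1.79 and 2.26 in the feeders. No knockout array came within 8 log2 units of a feeder array, and the share was 0.111% of the feeder signal (95% interval 0.0289% to 0.423%; log2 difference -9.82 ± 0.81, SE; adjusted p = 3.56e-05). miR-127, transcribed antisense to the retrotransposon-like gene Rtl1, stood at 0.192% with -7.59 and -6.91 in line 1, -6.87 and -8.40 in line 2, against 2.25 and 0.93 in the feeders, and its neighbour miR-337 at 0.389%.

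miR-323, from the same region, had -2.90 and -3.31 in line 1, -2.39 and -3.02 in line 2, against -3.36 (1 array) in the feeders. It stood well below wild type in knockout and feeders alike, its share was 137% (63.3% to 299%), and it did not pass. It rested on 1 feeder array. miR-341 and miR-370, also neighbours there, stood at 15.9% and 12.5%. miR-341 had -3.37 and -1.25 in line 1, -3.61 and -3.11 in line 2, against 0.30 and -0.66 in the feeders. Its call was lost without line 1 replicate 1 and with replicates 2 alone, and that of miR-370 without heterozygous replicate 3. miR-380 lies between miR-299 and miR-323 but was in none of the lists, and it was lower too, at 1.6%.

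The mir-17 family clusters, which promote proliferation, lay below wild type in the feeders and further below in the knockout. All 10 measured of 14 were lower in the knockout than in the feeders, against 77% of all 100 members. Their median share was 5.49% and their median difference -4.19. That difference turned to 1.64 with centred arrays, where 7 of the 10 were called higher. miR-17-5p had -8.44 and -7.36 in line 1, -7.35 and -8.08 in line 2, against -3.99 and -2.93 in the feeders. miR-106b had -4.10 and -5.13 in line 1, -3.88 and -3.85 in line 2, against -1.13 and -1.68 in the feeders. In each the knockout arrays lay below the feeder arrays. The share of miR-17-5p was 4.92% of the feeder signal (95% interval 2.44% to 9.92%; log2 difference -4.35 ± 0.42, SE; adjusted p = 7.05e-05), and miR-106b stood at 14%.

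The 6 members of the cluster on chromosome 14 ran from 3.07% (miR-17-3p) to 12.6% (miR-19a), and the call of miR-19a was lost without line 2 replicate 1. miR-17-3p and miR-17-5p come from the arms of the same hairpin and stood at 3.07% and 4.92%. On chromosome 5, miR-25, miR-93 and miR-106b stood at 3.3%, 3.77% and 14%. The median share of the 10 members was 6.50% against feeder replicate 1 and 5.26% against replicate 2.

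The mir-290 cluster makes the main microRNAs of mouse ES cells, several with the seed AAGUGCU that speeds the ES cell cycle. None of its 8 members passed the test, with a median share of 80.8% and a range of 54.1% (miR-290) to 149% (miR-291-5p). The median difference of -0.31 turned to 5.52 with centred arrays, with all 8 higher, and to 0.09 without line 1 replicate 1 and 0.25 without feeder replicate 2. Knockout means ran from -8.01 to -6.59 and feeder means from -7.95 to -5.92, so both stood far below wild type. Whether values this low lay near background is unknown, so these shares may not measure the microRNAs themselves.

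miR-294 had -7.98 and -6.57 in line 1, -7.00 and -7.40 in line 2, against -7.84 and -6.54 in the feeders. miR-291-3p had -8.60 and -7.67 in line 1, -7.53 and -8.25 in line 2, against -7.58 and -7.54 in the feeders. miR-295 had -8.47 and -7.38 in line 1, -7.56 and -8.10 in line 2, against -7.86 and -6.87 in the feeders. Knockout and feeder arrays overlapped in all 3, at shares of 96.7% (37.6% to 248%), 73% (35.9% to 148%) and 70.1% (36.8% to 133%). miR-290 had -8.25 and -4.78 in line 1, -7.33 and -6.86 in line 2, against -8.01 and -3.82 in the feeders, the widest gap between feeder arrays in the cluster, and its share was 231% against replicate 1 and 12.6% against replicate 2. miR-290, miR-292-3p and miR-295 were called lower without feeder replicate 1, miR-290 also without line 1 replicate 2, and miR-290 was called higher without feeder replicate 2. miR-293 stood at 114% (56.5% to 231%) and miR-292-5p at 89.4% (45.6% to 175%).

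**Figure D5:**
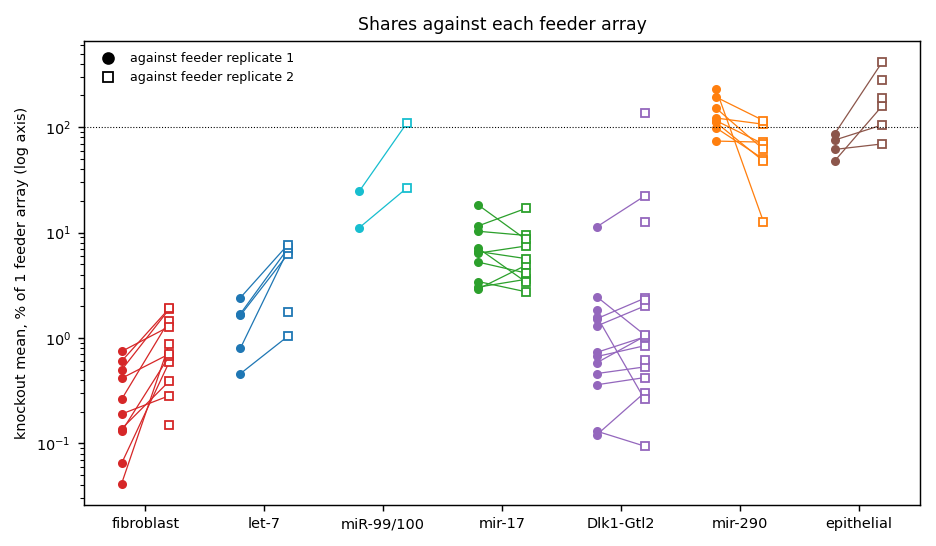
Mean knockout signal as a percent of each feeder array's signal, on a log axis, by microRNA group. Circles are shares against feeder replicate 1, open squares against replicate 2, and lines join the same microRNA. The let-7 medians over members with both arrays are 1.64% and 6.83%, and those of the mir-17 family 6.50% and 5.26%.

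The epithelial microRNAs of the miR-200 and miR-182 clusters were likewise low in knockout and feeders, and whether their values lay near background is unknown. Of 6 measured of 9, 1 was higher in the knockout and 5 did not pass, with a median share of 130%. With centred arrays all 6 were called higher. miR-200a, which represses the Zeb factors, had -5.02 and -7.24 in line 1, -5.99 (1 array) in line 2, against -7.53 (1 array) in the feeders. All 3 knockout arrays lay above the single feeder array, and the share was 278% of the feeder signal (95% interval 109% to 708%; log2 difference 1.47 ± 0.54, SE; adjusted p = 0.0482). Its call was lost under 9 other settings, among them arrays taken singly, no heterozygous arrays, and no line 1 replicate 1 or line 2 replicate 2. The median difference of 0.38 turned to -0.18 over members with all 6 arrays.

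miR-200b, its neighbour on chromosome 4, had -6.98 (1 array) in line 1, -5.66 and -4.62 in line 2, against -6.98 (1 array) in the feeders, and its share was 189% (43.1% to 828%). miR-141, with the seed of miR-200a, had -5.93 and -6.22 in line 1, -3.15 and -3.34 in line 2, against -4.46 and -6.72 in the feeders. The lines fell on either side of the feeder mean, at 71.4% and 507%. On chromosome 6, miR-182, miR-96 and miR-183, known from sensory epithelia, stood at 65.4%, 87.6% and 89.2%, and none passed, but miR-96 was called lower without feeder replicate 2.

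The neuronal miR-124a stood at 50.2% (17.8% to 142%) and did not pass, and miR-7, known from neurons and endocrine cells, was lower at 19%. miR-150, a lymphocyte microRNA, stood at 45.4% and did not pass, but it was called lower with a dye term, without line 2 replicate 1 and without feeder replicate 2. With centred arrays the differences turned to 4.83 for miR-124a, 3.43 for miR-7 and 4.69 for miR-150, all called higher. In the feeders the 3 lay at -5.24, -3.44 and -4.64, well below wild-type ES cells.

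miR-320, miR-126* and miR-138 were near or above the wild-type level in knockout and feeders alike. miR-320, a microRNA known to be made without Drosha and DGCR8, had 1.38 and 1.30 in line 1, 1.63 and 1.53 in line 2, against 1.18 and -0.04 in the feeders. Every knockout array lay above both feeder arrays, at a share of 185% of the feeder signal (95% interval 95.6% to 358%; log2 difference 0.89 ± 0.40, SE; adjusted p = 0.0769), which did not pass. It was called higher without feeder replicate 1, over members with all 6 arrays, and with replicates 2 alone. Its share was 121% against replicate 1 and 282% against replicate 2.

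miR-126*, the passenger strand of a hairpin in an intron of the endothelial gene Egfl7, had 0.95 and 0.78 in line 1, 1.48 and 1.03 in line 2, against 1.22 (1 array) in the feeders. The feeder array fell among the knockout arrays, and the share was 89.5% (39.4% to 204%). miR-138, known to limit dendritic spine size in neurons, had -0.60 (1 array) in line 1, -0.32 and -0.58 in line 2, against 0.61 and 0.37 in the feeders. Its 3 knockout arrays lay below both feeder arrays, at 49.5% (24% to 102%; adjusted p = 0.0676), and it was called lower without feeder replicate 2, line 2 replicate 1 or heterozygous replicate 3. These 3 were listed because earlier results of these data had shown them high in the knockout. With centred arrays all 3 were called higher, and the differences of miR-126* and miR-138 turned to 5.69 and 4.74.

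Members in no list had shares of 0.299% (miR-350) to 54.9% (miR-140), with a median of 3.98% over 17. miR-140, known from cartilage, had -1.51 (1 array) in line 1, -0.61 (1 array) in line 2, against -0.19 (1 array) in the feeders, and it did not pass. miR-211 of melanocytes stood at 38.2% (adjusted p = 0.0619), with -0.46 (1 array) in line 1, -0.76 and -1.51 in line 2, against 0.59 (1 array) in the feeders. These knockout values were among the 8 members within 2-fold of wild type, the others being let-7a, let-7b, let-7e, let-7f-2, miR-99a, miR-99b and miR-138. Only miR-211, miR-138 and miR-99b of the 8 had shares above 30% of the feeders.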

How the data were processed

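Mature microRNAs were measured on 9 arrays of 206 probes, each carrying a pair of samples in different dyes. Per the series text, the authors normalised the deposited ratios on positive control RNAs. The deposited values are log10 ratios: on line 1 replicate 2, ratios under 0.05 (90 values) had each been rounded to 4 decimals before the logarithm, against 1.58% by chance. No other array showed this, so base 10 was assumed for them, and folds depend on it. Cells with other content in the deposited columns of line 1 replicate 1 and feeder replicate 1 (spreadsheet errors) and empty cells were missing. Own RNA over wild type is the likely direction, as the series text names wild type as reference; scale beyond the controls and centring are unknown. Small RNA was gel-purified, mixed with control RNAs and labelled with the NCode system, per the labels' protocols. In replicate 2 of each group the dyes were swapped. The scanner, its software, background correction and spot filter were not given.

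Values were multiplied by 3.3219 to give log2, with no pseudocount. Probe names were matched to RefSeq genes of GRCm38.p6 for names, chromosomes and neighbours only. R 4.3.3 ran limma 3.58.1 (lmFit, eBayes) and statmod 1.5.0, which fitted 6 values per probe: 3 heterozygous arrays, each line's mean and the feeder mean. The feeder mean is a single value whose spread is borrowed, so intervals (95%) leave out the feeder arrays' own spread. P-values were adjusted (Benjamini-Hochberg) over the 100 members. The fit was tested on simulated data. Named were all let-7, miR-99/100, miR-125, fibroblast, mir-290 and high-in-knockout members, the 10 lowest and 10 highest differences, the extremes of other lists, and cluster neighbours; miR-103, miR-107, miR-140, miR-211, miR-301, miR-341, miR-350, miR-370, miR-423 and the probes outside the 100 were named after their values were seen. Members and lists were chosen with earlier results of these data known. Alternatives were centring, single arrays, blocks, a dye term, value filters and leaving out each array.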

Additional observations from a re-analysis of the deposited data

Results flagged for a closer look

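Between the knockout lines, miR-125b and miR-370 differed past the threshold, and miR-141 lay on opposite sides of the feeder mean in the lines without passing it. miR-125b was lower in line 2 than in line 1 by 4.88 on the log2 scale (line 2 minus line 1 -4.88, limma adjusted p = 0.0437 over the 100 members, all arrays taken singly), with line means of 0.26 and -4.62 and a feeder mean of 4.004. Line 1 rested on 1 array for it. miR-370 was higher in line 2 by 2.33 (adjusted p = 0.0437), with line means of -5.76 and -3.43 and a single feeder value of -1.60. miR-141 was higher in line 2 by 2.83, with line means of -6.07 and -3.25 on either side of the feeder mean of -5.59, and it did not pass (adjusted p = 0.0521). The spread in these tests is that between the arrays of a group, which for the lines are duplicate hybridisations. Whether the feeder and heterozygous arrays were separate cultures is not known, so spread between cultures may be left out. No group had the 4 arrays needed to look for outlying arrays.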

How the results depend on the processing

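Directions held for most results except under centring, which changed the most. With each array centred on its own median over the 58 probes measured on all 9 arrays, 23 microRNAs were lower and 41 higher, and the median difference turned to 0.52. The difference turned sign for 49 of the 100, among them let-7a (0.41), let-7b (0.98), let-7d (0.0187), let-7e (1.29), let-7f-2 (0.78), miR-99a (3.28), miR-99b (4.88), miR-126* (5.69), miR-138 (4.74), miR-130b (2.13), miR-7 (3.43), miR-124a (4.83) and miR-150 (4.69). In the mir-290 cluster those that turned were miR-290 (4.94), miR-291-3p (5.37), miR-292-3p (5.37), miR-292-5p (5.66), miR-294 (5.78) and miR-295 (5.31), and in the miR-182 cluster miR-182 (5.21), miR-96 (5.63) and miR-183 (5.66). All 10 of the mir-17 family turned: miR-17-3p (0.80), miR-106a (1.40), miR-17-5p (1.48), miR-18 (2.48), miR-19a (2.83), miR-20 (1.97), miR-25 (0.91), miR-92 (1.80), miR-93 (1.10) and miR-106b (2.99). Others that turned were miR-134 (0.39), miR-370 (2.85), miR-341 (3.17), miR-423 (3.83), miR-211 (4.38) and miR-140 (4.99), and the rest lay between 0.0365 (miR-410) and 3.35 (miR-224). The medians of the let-7 (0.60), mir-17 (1.64) and mir-290 (5.52) lists turned as well. Centring sets the median of each array to 0 by construction.

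The 77 lower calls were kept with arrays taken singly, with the group as a random block (correlation -0.05) and without the heterozygous arrays. No microRNA was higher in those 3 limma fits, also at an unadjusted p under 0.05 (0 in each), against 1 (miR-200a) as reported. With a dye term 78 were lower and 0 higher. With values on all 6 arrays 53 of 68 were lower and the epithelial median was -0.18, and with 2 or more heterozygous values 66 of 87 were lower. Leaving out an array gave 67 to 77 lower and 0 to 2 higher calls, and a median difference of -5.93 to -5.01. The lowest count, 67, came without line 1 replicate 2, where 85 were tested. Without feeder replicate 2, with 81 tested, miR-290 turned to 1.21, while without feeder replicate 1 it was -2.98. The mir-290 median ran from -0.62 (without feeder replicate 1) through 0.09 (without line 1 replicate 1) to 0.25 (without feeder replicate 2). The epithelial median ran from -0.55 (without feeder replicate 2) through -0.28 (line 2 replicate 1) and -0.12 (line 1 replicate 2) to values above 0. After seeing the data, replicates of a single dye orientation were also used: replicates 2 alone gave 68 lower of 93 and 1 higher, and replicates 1 alone 58 of 73, 0 higher and an epithelial median of -0.26. Apart from centring, the cause of these changes was not tested.

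Replicate numbers are shared by lines and feeders but mark the dye orientation. Deviations of same-numbered arrays correlated at 0.28 between the lines, 0.40 between line 1 and the feeders and 0.09 between line 2 and the feeders, so the numbers were not taken to pair samples. With a replicate block 77 were lower and 0 higher, and every lower call of the reported fit was kept. Signal over background, which would set the lower limit of the ratios, is unknown.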

Other observations

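Of the mouse probes with a feeder value, 31 were not members because 1 or both knockout lines gave no value. For 22 of them no knockout array gave a value, and all 22 stood more than 4-fold above wild type in the feeders, at a median of 4.18 and a range of 2.02 to 5.88. Among them were the mesenchymal miR-199a-1 (5.88) and miR-214 (4.98), let-7f-1 (5.86), let-7i (5.32), miR-10a of the Hox clusters (5.13), the smooth muscle microRNA miR-143 (4.63) and miR-100 (4.26). The shares given for the members therefore leave out many of the probes highest in the feeders, and whether a missing value means a low signal is not known. let-7f-1 has the same mature sequence as the member let-7f-2, which had knockout values near wild type (line means 0.07 and 0.89). The other 9 had a value in 1 line only, at shares of 0.339% (miR-34c, line 1) to 365% (miR-205, line 1) with a median of 1.50%. let-7c, in line 2 only, stood at 1.04%.

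A further 13 mouse probes had values in both lines and none in the feeders. miR-340 stood at -0.08 in line 1 and 1.27 in line 2, and miR-302a of the ES cell mir-302 cluster at -6.36 and -5.01. Among the 11 probes with no mouse gene, 2 had the needed values: miR-368 at 3.72% of the feeder signal and miR-422a at 205%.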
